A study of Mus musculus with 2 samples.

Results

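The DNA replication machinery is described here as 45 genes of the mouse testis, taken by symbol from the 31053 genes that both libraries list: origin recognition and licensing, the MCM helicase and its activators, the sliding clamp and its loader, the replicative polymerases with primase, replication protein A, the Okazaki fragment enzymes, a pair of fork protection proteins, and 3 enzymes of nucleotide supply. All 45 symbols were found. The genes were chosen by function and not by a limit on a measured value, though with earlier results of these data known. They were followed through germ cell classes in 1 wild type and 1 Igf2bp1 knockout single-cell library from testes of 8-month-old mice. Igf2bp1 encodes an RNA-binding protein. The labels call the second genotype a knockout, the series text calls the knockout conditional and gives 2 mice in all, and the number of mice behind each library is not stated. The sources used here do not give the Cre line, the deleted exons or the mouse strain.

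A cell copies its DNA once per cycle. In G1 the origin recognition complex, with Cdc6 and Cdt1, loads rings of Mcm2 to Mcm7 onto DNA, and in S phase Cdc45 and GINS turn each ring into a running helicase. Primase starts each strand, polymerases delta and epsilon extend it on the Pcna clamp, and Fen1 and Lig1 close the lagging strand. In the testis spermatogonia replicate at each mitosis and the last replication comes just before meiosis. Late spermatocytes and spermatids do not replicate their genome, although several of these proteins also act in DNA repair and recombination.

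With 1 library per genotype there is no replicate of either genotype and no test of a difference. Counts of unique molecules (UMIs) were summed over the cells of a class and are given as CPM, the UMIs of a gene per 1000000 UMIs of that class. The 95% intervals are exact Poisson for a level and exact binomial for a ratio, and they cover counting error only. A gene was called past the limit where the knockout to wild type ratio was at least 1.5-fold and its interval left out 1, among genes with at least 20 UMIs in both libraries together. The wild type library held 17362 barcodes and 121257944 UMIs, the knockout library 17968 and 98033324. Before any filter the 2 libraries shared 106 barcode sequences. Of the barcodes kept after filtering, those with little more than free RNA made up 61.7% and 41.2%, and those with mixed markers 2.26% and 30.6%. Cells were grouped without using the 45 genes, and classes were named by marker genes as spermatogonia-like (102 wild type and 50 knockout cells), early spermatocyte-like (87 and 38), late spermatocyte-like (1418 and 473), round spermatid-like (1723 and 1183) and elongating spermatid-like (1843 and 917). The suffix is left out hereafter. The first 2 classes lie in 1 cluster of 282 and 148 cells, which also holds sub-clusters left unnamed. It is called the premeiotic cluster as a label only, since not all of its cells are premeiotic by their markers. The leading genes of 1 sub-cluster include the meiotic genes Meiob, Hormad1 and Rad51ap2. Those of an unnamed sub-cluster include the late spermatocyte marker Ccna1. Igf2bp1 itself stood at 70.7 CPM in wild type spermatogonia (62 UMIs) and 33.1 in the knockout library (14 UMIs), a log2 ratio of -1.09 (-2.05 to -0.24), beside 3.60 and 3.03 in free RNA. Its transcript was lower and not absent there, and UMIs from outside a deleted part would still be counted. Of the 14 spermatogonia markers, 14 were detected in both libraries, at a sum of 1413 and 1244. The 12 early spermatocyte markers summed to 1668 and 1330 in the same cells, above the spermatogonia list. In early spermatocytes the early spermatocyte markers stood at 3851 and 4266 and the spermatogonia markers at 271 and 288.

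Many replication genes are known targets of E2F transcription factors, so the letters before their starts were searched for E2F motifs. In 300-base promoter windows of RefSeq (GRCm38.p6; 250 bases before to 50 after a start), the 8-base E2F motifs TTTCCCGC, TTTCGCGC, TTTGCCGC and TTTGGCGC were looked for on both strands. Matches may overlap, since TTTCGCGC and TTTGGCGC read on opposite strands share bases. A window was found for 37 of the 45 genes, and 15 of the 37 (40.5%) held at least 1 match, beside 704 of 27025 genes (2.61%) with a window of the same length. The 37 genes have 45 windows, since some have more than 1 RefSeq start, and in 35 of them the bases after the start were found near the beginning of a GENCODE M21 transcript of the gene. The 170 bases before the RefSeq start of 4 genes are shown. They were picked because Mcm5, Mcm6 and Pola1 stand far higher in the premeiotic cluster than in later germ classes and Orc3 less so. All 4 carry a match. These stretches lie before the GENCODE gene as well, apart from 2 bases of Orc3. Capitals mark the matches, on the strand of the gene, at chr8:75109339-75109508 (plus strand) for Mcm5, chr1:128359706-128359875 (minus) for Mcm6, chrX:93632156-93632325 (minus) for Pola1 and chr4:34614943-34615112 (minus) for Orc3. Mcm6 has 3 matches and Mcm5 has 2, some of them overlapping, and Pola1 and Orc3 have 1.
Mcm5: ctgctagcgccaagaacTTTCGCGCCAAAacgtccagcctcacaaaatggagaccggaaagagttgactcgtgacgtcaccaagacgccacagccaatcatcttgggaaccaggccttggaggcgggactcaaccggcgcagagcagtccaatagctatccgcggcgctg
Mcm6: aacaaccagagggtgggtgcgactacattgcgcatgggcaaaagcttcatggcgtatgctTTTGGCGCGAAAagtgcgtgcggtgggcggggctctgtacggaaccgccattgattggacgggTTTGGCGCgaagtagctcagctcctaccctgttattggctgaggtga
Pola1: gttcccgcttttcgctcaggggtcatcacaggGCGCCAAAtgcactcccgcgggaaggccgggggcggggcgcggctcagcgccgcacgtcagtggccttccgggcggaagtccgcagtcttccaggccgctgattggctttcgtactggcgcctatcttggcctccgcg
Orc3: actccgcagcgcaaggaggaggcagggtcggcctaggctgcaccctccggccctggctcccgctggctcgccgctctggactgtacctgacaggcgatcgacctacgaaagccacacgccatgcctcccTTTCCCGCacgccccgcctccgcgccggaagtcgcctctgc
A match is a description of the letters, not a site shown to be bound.

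Summed over the 45 genes, the replication machinery was highest in spermatogonia and early spermatocytes of both libraries and lower in each later germ class. In wild type spermatogonia the sum was 3248 (3130.1 to 3369.8) CPM, in early spermatocytes 2722 (2585 to 2865), in late spermatocytes 1493 (1480.1 to 1506), in round spermatids 1098 (1086 to 1111) and in elongating spermatids 415 (408 to 422). The knockout sums were 3213 (3044 to 3388), 3206 (2955 to 3473), 1457 (1430.0 to 1484), 1093 (1073 to 1114) and 442 (431 to 454) in the same order. Wild type spermatogonia stood above early spermatocytes beyond counting error, while the intervals of the 2 knockout classes overlapped. The early class joins 2 sub-clusters in unequal parts: the larger (56 wild type and 32 knockout cells) summed to 3627 (3415 to 3847) and 3463 (3183 to 3762), which in the wild type library is above spermatogonia, and the smaller (31 and 6 cells) to 1578 (1423 to 1745) and 1547 (1099.9 to 2115). The later classes kept the same order in both libraries, with intervals that did not overlap. The level in the tenth of barcodes with fewest UMIs, taken as free RNA, was 1021 and 1138. The round spermatid sum lay close to it in CPM, in cells of median 5631 and 2286 UMIs against 968 and 1301 in those barcodes. Sertoli cells, which do not divide in the adult, stood at 875 and 871, below that level. The plot of the summed level shows these sums.

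**Figure D1:**
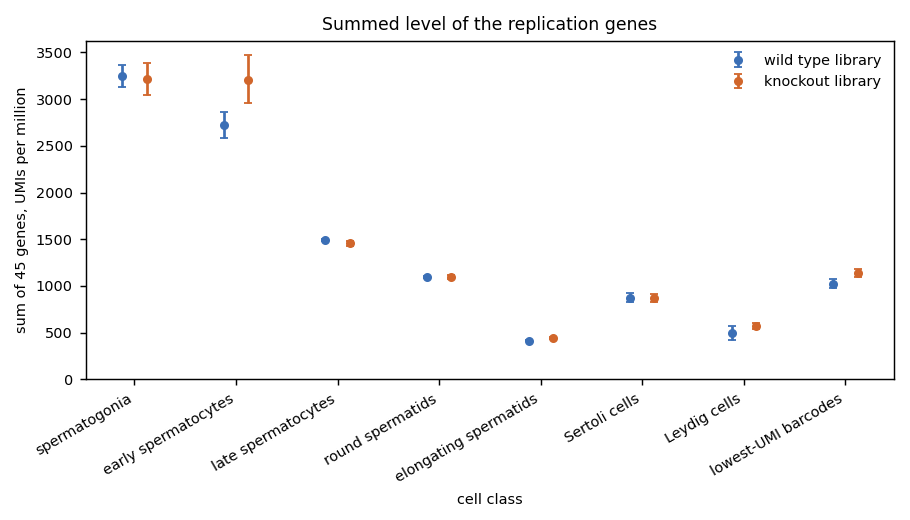
Summed level of the 45 replication genes in CPM (vertical axis) by cell class (horizontal axis) in the wild type and knockout library; points are sums over all cells of a class and bars exact Poisson 95% intervals of counting error. Spermatogonia and early spermatocytes lie at 2722 CPM or above, and elongating spermatids at 442 or below.

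The 45 genes did not fall together. By their levels in the wild type library, 18 stood at least 4-fold higher in the premeiotic cluster than in the highest of the 3 later germ classes, 16 were higher there by less than that, and 11 stood higher in at least 1 later class than in the premeiotic cluster. These groups were set from the wild type values after those were seen, so the wild type values describe them. In the knockout library, which the grouping did not use, 42 of 45 fell in the same group, and Orc3, Cdc45 and Rfc1 did not. The groups rest on the whole cluster, unnamed sub-clusters included, and not on spermatogonia alone. Among the named germ classes, 30 wild type genes were highest in spermatogonia, 8 in early spermatocytes, 4 in late spermatocytes and 3 in round spermatids. The knockout counts were 18, 22, 3 and 2. The 18 genes were Orc1, Orc6, Cdt1, Mcm2 to Mcm6, Mcm10, Gins3, Rfc5, Pola1, Pold1, Rpa2, Rpa3, Lig1, Timeless and Tyms. Their sum went from 1311 CPM in wild type spermatogonia to 59.9 in late spermatocytes and 8.55 in elongating spermatids, beside 28.8 in free RNA. The knockout sums were 1266, 77.4 and 10.2, beside 54.6. The 11 genes with a later class above the whole cluster were Orc5, Gins1, Gins2, Gins4, Pcna, Rfc1, Rfc2, Pole2, Pold3, Rpa1 and Fen1. They summed to 798 in wild type spermatogonia, 954 in late spermatocytes and 713 in round spermatids. Free RNA held these 11 at 694, which is close to the round spermatid value. E2F motif matches were found in 9 of the 17 genes with a window in the first group (52.9%), in 4 of 13 in the second (30.8%) and in 2 of 7 in the third (28.6%). These are few genes and the shares are given without a test.

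**Figure D2:**
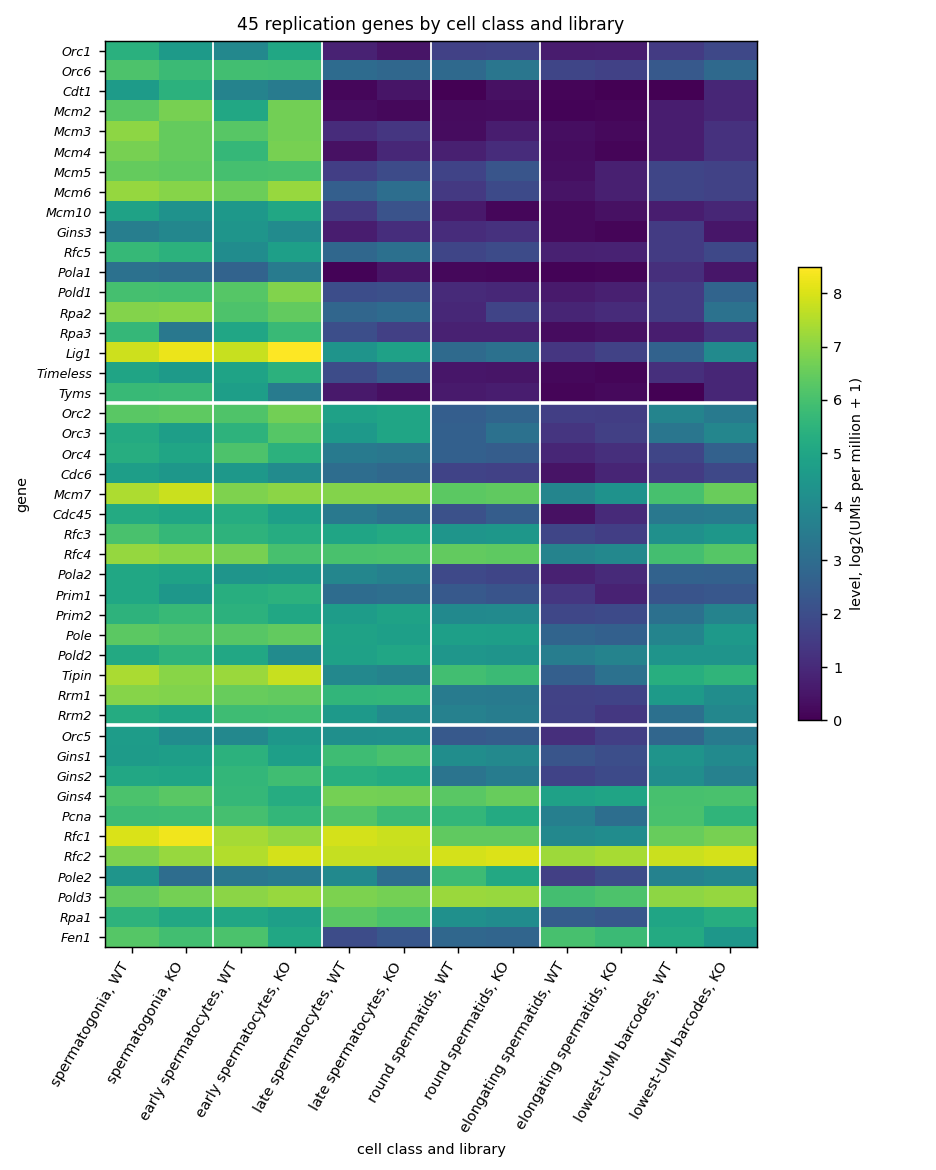
Level of each of the 45 genes (rows, in the 3 groups separated by thick horizontal lines) as log2(CPM + 1), in 5 germ cell classes and in the barcodes with fewest UMIs (free RNA), each for the wild type (WT) and knockout (KO) library. The 18 genes of the top block are brighter in the first 4 columns than in late spermatocytes and spermatids.

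Origin recognition and licensing come first in the order of events. The 6 ORC subunits, which mark origins, summed to 286 CPM in wild type and 234 in knockout spermatogonia. Within the complex, Orc1, the subunit that is degraded and made anew in each cycle in dividing cells, stood at 41.0 in wild type spermatogonia and 0.775 in late spermatocytes. Orc2, a core subunit, went from 78.7 to 27.6, and Orc5 from 25.1 to 17.7, where the intervals overlapped. Orc1 thus stood more than 10-fold lower in the later class and Orc5 did not. Cdc6 and Cdt1, which bring the helicase to origins, stood at 26.2 and 23.9 in wild type spermatogonia. Cdt1 had 0 UMIs in 1723 wild type round spermatids, where 3 counts would be 0.106 CPM, and Cdc6 stood at 7.13 in late spermatocytes.

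The MCM helicase split between its subunits. Mcm2, Mcm3, Mcm4, Mcm5 and Mcm6 together stood at 539 CPM in wild type spermatogonia, 317 in early spermatocytes, 8.53 in late spermatocytes, 4.95 in round and 1.14 in elongating spermatids. Knockout values were 487, 517, 12.8, 8.44 and 1.69. Free RNA held 6.60 and 7.80, so the spermatid values lay within a few CPM of it. Mcm7, the sixth subunit of the same ring, was at 174 (148 to 204) in wild type spermatogonia, 119.9 (116 to 124) in late spermatocytes and 79.9 (76.7 to 83.3) in round spermatids. Its knockout levels were 222, 118 and 84.6, against free RNA at 64.2 and 92.3. In late spermatocytes, whose median cell held 19060 wild type and 13006 knockout UMIs, Mcm7 was near its early spermatocyte levels of 114 and 128, while the sum of its 5 partners went from 317 and 517 to 8.53 and 12.8. In the premeiotic cluster the wild type share of cells with an Mcm7 UMI was 52.1%. It was 24.5% when each cell was thinned to 2000 UMIs, beside 6.04% of the barcodes with fewest UMIs (median 968 UMIs, against 6557.5 in the cluster).

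**Figure D3:**
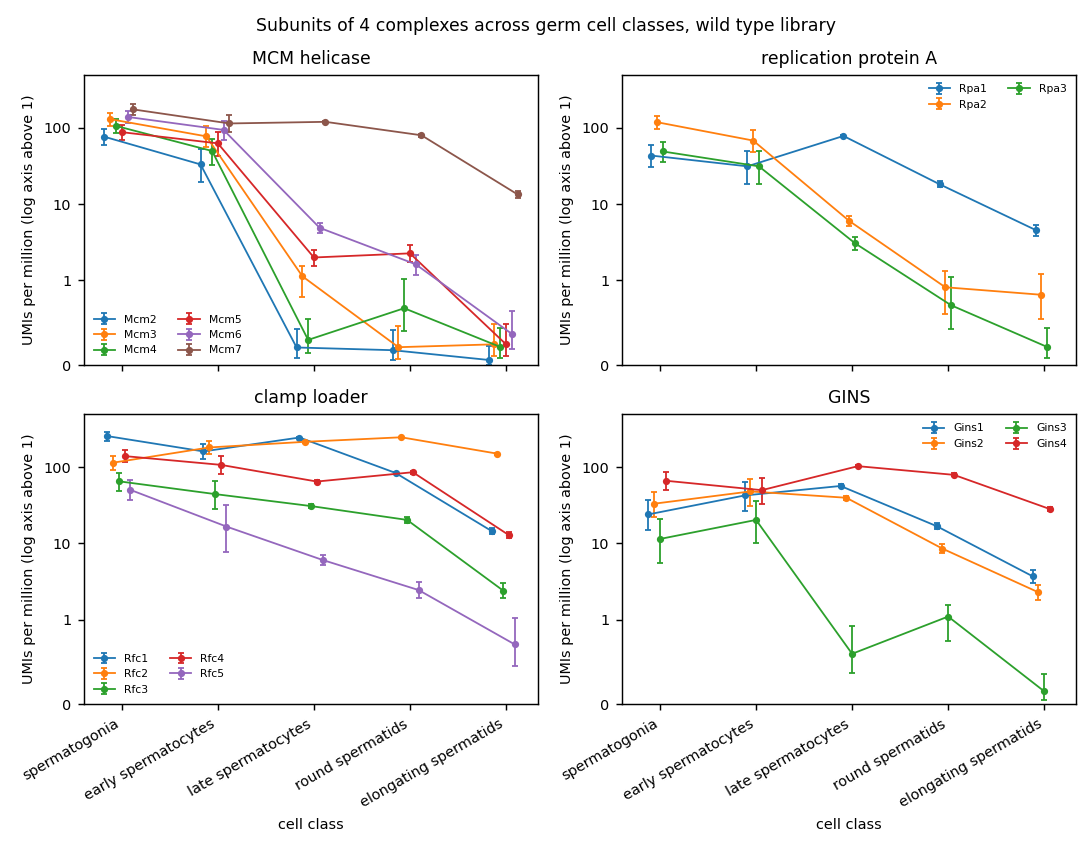
Level in CPM (vertical axis, logarithmic above 1) of the subunits of the MCM helicase, replication protein A, the clamp loader and the GINS complex across 5 germ cell classes of the wild type library; bars are exact Poisson 95% intervals. Mcm7 stays at 119.9 in late spermatocytes where Mcm2 is at 0.209, and Rpa1 at 78.3 where Rpa3 is at 3.07.

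Other complexes split in the same way. Of the 4 GINS subunits, which join Cdc45 on the active helicase, Gins4 went from 66.1 CPM in wild type spermatogonia to 103 in late spermatocytes, and Gins3 went from 11.4 to 0.596. The knockout library gave 78.1 and 101 for Gins4, and 14.2 and 1.17 for Gins3. In the clamp loader, Rfc1, its large subunit, stood at 254 and 244 in these 2 classes, while Rfc5, a small subunit, went from 50.2 to 6.05. Rfc2 was at 245 in wild type round and 149.6 in elongating spermatids, beside 222 in free RNA. These CPM stand for 6941 UMIs in 1723 round and 4864 in 1843 elongating spermatids, against 370 in 1722 barcodes of free RNA, so the spermatids held more Rfc2 UMIs per cell. Pcna, the clamp itself, changed little across the first 4 classes, at 55.9, 62.6, 70.9 and 48.5, with free RNA at 64.8. Its counted pseudogene copy Pcna-ps2 held at most 22 UMIs in any of these wild type classes.

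Replication protein A coats single-stranded DNA and is used in replication and in meiotic recombination. Its large subunit Rpa1 stood at 43.3 (30.7 to 59.5) CPM in wild type spermatogonia and 78.3 (75.3 to 81.4) in late spermatocytes, so it was higher in the later class. Rpa2 went from 119 to 6.02 and Rpa3 from 49.0 to 3.07. The knockout library had the same order for Rpa1 (33.1 and 66.2) and for Rpa2 (125 and 6.74).

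The polymerases divided by subunit as well. Catalytic subunits of polymerases alpha and delta, Pola1 and Pold1, went from 7.98 and 62.7 CPM in wild type spermatogonia to 0.0596 and 3.01 in late spermatocytes. Pold3, an accessory subunit of polymerase delta, was at 86.7 and 112, with free RNA at 132. Pole2, the second subunit of polymerase epsilon, was highest in round spermatids, at 55.2 (52.5 to 58.0), and Pole, the catalytic subunit, was not, with 79.8 in spermatogonia and 26.7 in round spermatids. Of the Okazaki fragment enzymes, Lig1, the ligase, went from 229 to 19.8 and 1.51 in elongating spermatids. Fen1, the flap nuclease, went from 75.3 to 2.95 and then stood at 63.1 in elongating spermatids, above the free RNA at 35.4. The same was seen in the knockout library, with 59.1, 3.89 and 54.3 beside 21.2. Fen1 overlaps Tmem258 on the other strand, which stood at 46.8 in wild type elongating spermatids and 271 in round ones. The fork protection partners Timeless and Tipin differed too. Timeless went from 29.6 to 0.424 between spermatogonia and round spermatids, and Tipin from 168 to 59.2, with free RNA at 39.0. Of the nucleotide enzymes, Tyms, which makes thymidylate, went from 51.3 to 0.507, while the ribonucleotide reductase subunits Rrm1 and Rrm2 kept 47.4 and 22.5 in late spermatocytes.

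Within the premeiotic cluster the level of the machinery differed between some sub-clusters and not between others. The early spermatocyte class joins a sub-cluster of 56 wild type and 32 knockout cells with a sub-cluster of 31 and 6 cells. The leading genes of the second include the early spermatocyte markers Hormad1 and Rad51ap2, and those of the first include 0 markers of the class. Over the whole marker list the first stood higher, at a mean log2 over free RNA of 3.46 against 1.60. The 18-gene sum was 1451 and 1532 CPM in the first and 238 and 317 (8 UMIs, 137 to 625) in the second. The first thus stood at the level of the Kit-expressing spermatogonia sub-cluster of 64 and 15 cells, which had 1444 and 1557. In the second, wild type Lig1 and Fen1 together had 7 UMIs (29.2 CPM, against 485 in the first). Cdc6 and Cdt1 had none among 239603 UMIs, for which 3 counts would be 12.5 CPM. The ORC subunits did not separate the 2 sub-clusters, at 277 and 263. The 11 genes with a later class above the whole cluster stood at 884 and 680.3.

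Between the genotypes, the summed level of the 45 genes differed little. In spermatogonia the log2 ratio of knockout to wild type was -0.02 (-0.11 to 0.08), in early spermatocytes 0.24 (0.10 to 0.37), in late spermatocytes -0.04 (-0.07 to -0.01), in round spermatids -0.01 (-0.04 to 0.03) and in elongating spermatids 0.09 (0.05 to 0.14). None of these reached 1.5-fold. Spermatogonia join 2 sub-clusters in unequal parts, of 64 wild type and 15 knockout cells and of 38 and 35. The first summed to 3498 (3353 to 3648) and 3919 (3626 to 4230) CPM, the second to 2628 (2431 to 2836) and 2742 (2542 to 2954). With both weighted equally the ratio in spermatogonia was 0.12. The interval for early spermatocytes lay above 0. In the larger early spermatocyte sub-cluster alone, an alternative added after seeing the data, the ratio was -0.07. With both early spermatocyte sub-clusters weighted equally it was -0.05. For the whole premeiotic cluster, a grouping added after seeing the data that holds both classes, the sum was 2521 (2461 to 2582) and 2973 (2871 to 3079) CPM and the ratio 0.24 (0.18 to 0.30). With its 7 sub-clusters weighted equally the ratio was 0.07, and 0.14 without the 2 sub-clusters that carried protamine UMIs. One of those held 820546 of the 2672030 wild type UMIs and 85299 of the 1070141 knockout UMIs. Another unnamed sub-cluster, outside those 2, had 31 wild type and 28 knockout cells. It summed to 2894 (2627 to 3181) and 3698 (3441 to 3968), with intervals that did not overlap. The part of each sub-cluster in the ratio of the whole cluster was not tested. In elongating spermatids the ratio lay near the median of all genes measured in that class, a log2 of 0.12. Scaling by trimmed means shifts every ratio in this class by -0.11, to -0.02 for the sum.

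Gene by gene, 1 of 43 measured genes was past the limit in spermatogonia, where 5.76% of all 8242 genes measured were. In early spermatocytes it was 3 of 34, beside 10.5% of all genes, in late spermatocytes 3 of 40, beside 10.3%, in round spermatids 5 of 39, beside 10.3%, and in elongating spermatids 4 of 34, beside 9.04%. Across the premeiotic cluster it was 5 of 45, beside 8.99%. The counts of replication genes lie near these shares. By direction, the share of all genes past the limit was 2.79% higher and 2.97% lower in spermatogonia, where the replication genes had 0 and 1. It was 4.92% and 5.58% in early spermatocytes (replication genes 3 and 0), 7.48% and 2.85% in late spermatocytes (2 and 1), 9.09% and 1.21% in round spermatids (4 and 1) and 8.07% and 0.967% in elongating spermatids (2 and 2). In the premeiotic cluster it was 4.00% and 4.99% (3 and 2). Alternatives in the processing gave 0 to 9 genes in spermatogonia and 0 to 6 in early spermatocytes. The median log2 ratio of the measured genes was -0.17 in spermatogonia (all genes -0.02), 0.14 in early spermatocytes (-0.01) and 0.23 in the whole cluster (-0.00). In late spermatocytes and round spermatids the medians were 0.02 and 0.03 (0.05 and 0.08). A measured gene had to reach the count minimum through either library, so the genes under it (2 in spermatogonia, 11 in early spermatocytes) are not part of these counts.

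**Figure D4:**
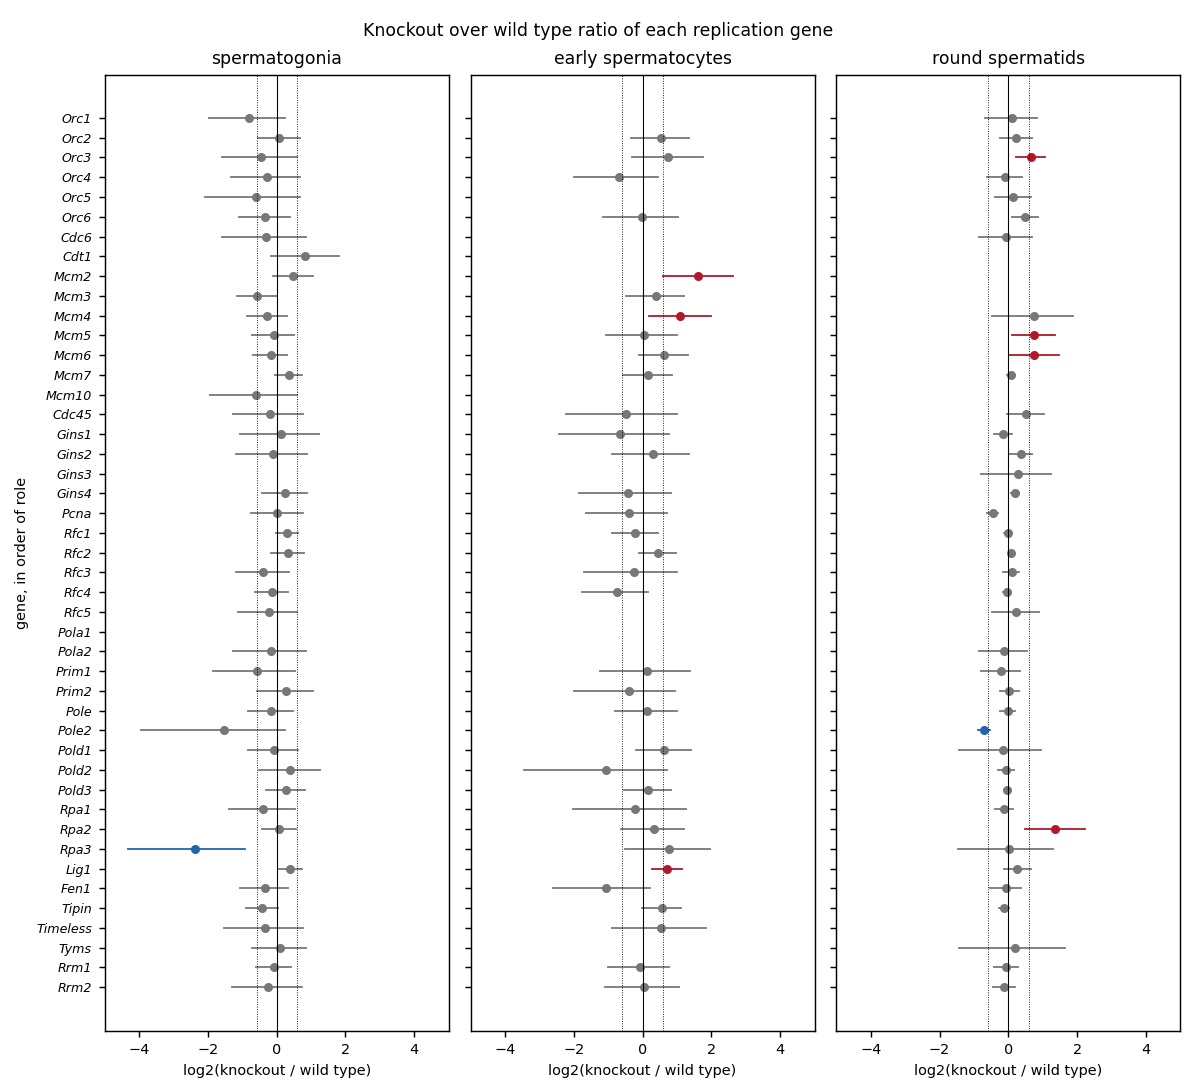
Log2 ratio of knockout to wild type level (horizontal axis) of each replication gene (rows, in order of role) in spermatogonia, early spermatocytes and round spermatids, with exact binomial 95% intervals of counting error cut at 5 on either side; dotted lines mark 1.5-fold, red genes are past the limit and higher in the knockout library, blue ones lower, and genes under 20 UMIs are left blank. Most intervals cross 0, with Rpa3 lowest in spermatogonia and Mcm2 highest in early spermatocytes.

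Rpa3 (ENSMUSG00000012483, chr6:8255936-8259173), the smallest subunit of replication protein A, gave the largest ratio in spermatogonia. It had 43 UMIs in the wild type and 4 in the knockout library, or 49.0 (35.5 to 66.0) and 9.46 (2.58 to 24.2) CPM. The knockout level was lower and the intervals did not overlap, with a log2 ratio of -2.37 (-4.31 to -0.91). It was past the limit in 9 of 10 alternatives, and under the other, with cells thinned to 2000 UMIs, the log2 ratio was -1.68. Early spermatocytes did not follow, with 17 and 10 UMIs and a ratio of 0.77 (-0.52 to 1.98). Over the premeiotic cluster Rpa3 stood at 33.7 and 17.8, a ratio of -0.92 (-1.72 to -0.20), and was past the limit in 11 of 11 alternatives. The share of cells in the cluster with an Rpa3 UMI was 26.2% and 12.2%, or 7.47% and 3.82% after thinning (18 of 241 and 5 of 131 cells, with overlapping exact binomial 95% intervals of 4.49 to 11.5 and 1.25 to 8.68), beside 0.0581% and 0.169% in the barcodes with fewest UMIs. Rpa2 had a ratio of 0.08 (-0.43 to 0.57) in spermatogonia, an interval that did not overlap that of Rpa3, and Rpa1 one of -0.39 (-1.39 to 0.53), which did.

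Pole2 (ENSMUSG00000020974, chr12:69201773-69228195), which forms polymerase epsilon with Pole, was lower in the knockout library in 2 germ classes. In round spermatids, where it is highest, it stood at 55.2 (52.5 to 58.0) CPM in the wild type and 34.0 (30.4 to 37.8) in the knockout library, from 1562 and 334 UMIs, with a log2 ratio of -0.70 (-0.88 to -0.53). The median round spermatid held 5631 UMIs in the wild type and 2286 in the knockout library, and a shallow cluster held 863 of the 1723 wild type and 802 of the 1183 knockout cells. In the deep cluster alone the levels were 57.9 and 38.3 and the ratio -0.60 (-0.78 to -0.42). With both clusters weighted equally it was -0.52 and no longer past the limit. In late spermatocytes the levels were 15.3 (14.0 to 16.7) and 7.26 (5.48 to 9.43), a ratio of -1.08 (-1.50 to -0.68) that was past the limit in 9 of 9 alternatives. Free RNA held Pole2 at 12.6 and 14.3, the knockout value being the higher. In spermatogonia the UMIs were 18 and 3 and the interval of the ratio, -1.53 (-3.94 to 0.24), included 0. Across the premeiotic cluster the ratio was -1.26 (-2.40 to -0.29), past the limit in 8 of 11 alternatives. Pole had ratios of -0.09 (-0.32 to 0.13) in late and -0.02 (-0.23 to 0.18) in round spermatids, with intervals that did not overlap those of Pole2. Pole2 shares its strand over some bases with Gm49384, which had at most 1 UMI in each of these classes.

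Mcm2 (ENSMUSG00000002870, chr6:88883474-88898780), a subunit of the helicase ring, was higher in the knockout library in early spermatocytes, at 33.2 (19.6 to 52.4) and 101 (60.9 to 158) CPM from 18 and 19 UMIs. The log2 ratio was 1.61 (0.60 to 2.62) and it was past the limit in 10 of 11 alternatives, the thinned one excepted (0.69). In the larger sub-cluster alone it was 56.0 and 117, a ratio of 1.06 (0.04 to 2.09). In spermatogonia the levels were 76.4 and 106, a ratio of 0.48 (-0.10 to 1.05) with an interval that included 0. Mcm4 was also past the limit in early spermatocytes at 49.7 and 107, a ratio of 1.10 (0.19 to 1.99), but in the larger sub-cluster alone its ratio was 0.83, and it was past the limit in 5 of 11 alternatives, with a lowest ratio of 0.00961. Mcm3, Mcm5 and Mcm7 were within 1.5-fold in early spermatocytes, between 0.03 and 0.39, and the ratio of Mcm6, 0.61 (-0.12 to 1.31), passed 1.5-fold with an interval that included 0. Lig1 (ENSMUSG00000056394, chr7:13277283-13311433) stood at 217 (179.9 to 260.3) and 357 (277 to 453) in early spermatocytes, a ratio of 0.72 (0.26 to 1.16), and at 229 and 303 in spermatogonia, a ratio of 0.40 (0.07 to 0.73) that did not reach 1.5-fold. Its early spermatocyte ratio fell to 0.07 with sub-clusters weighted equally, and 0.13 in the larger one alone, and it was past the limit in 6 of 11 alternatives. Over the whole premeiotic cluster Mcm2 stood at 41.9 and 77.6, a ratio of 0.89 (0.46 to 1.31) (past the limit in 9 of 11 alternatives), and Lig1 at 169 and 264, a ratio of 0.64 (0.43 to 0.86) (7 of 11). Cdt1, the licensing factor, was higher there as well, at 13.8 and 26.2, from 37 and 28 UMIs, a ratio of 0.92 (0.16 to 1.67). It was past the limit in 7 of 11 alternatives, with a lowest ratio of 0.45. Mcm2, Lig1 and Cdt1 were not past the limit in the cluster when sub-clusters were weighted equally or each cell was named by its markers. Lig1 was not past it without the protamine sub-clusters either. Across the alternatives the lowest ratios of Mcm2 and Lig1 were 0.29 and 0.17. Cdt1 shares its strand with Gm20388, which had 0 UMIs in the cluster.

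**Figure D5:**
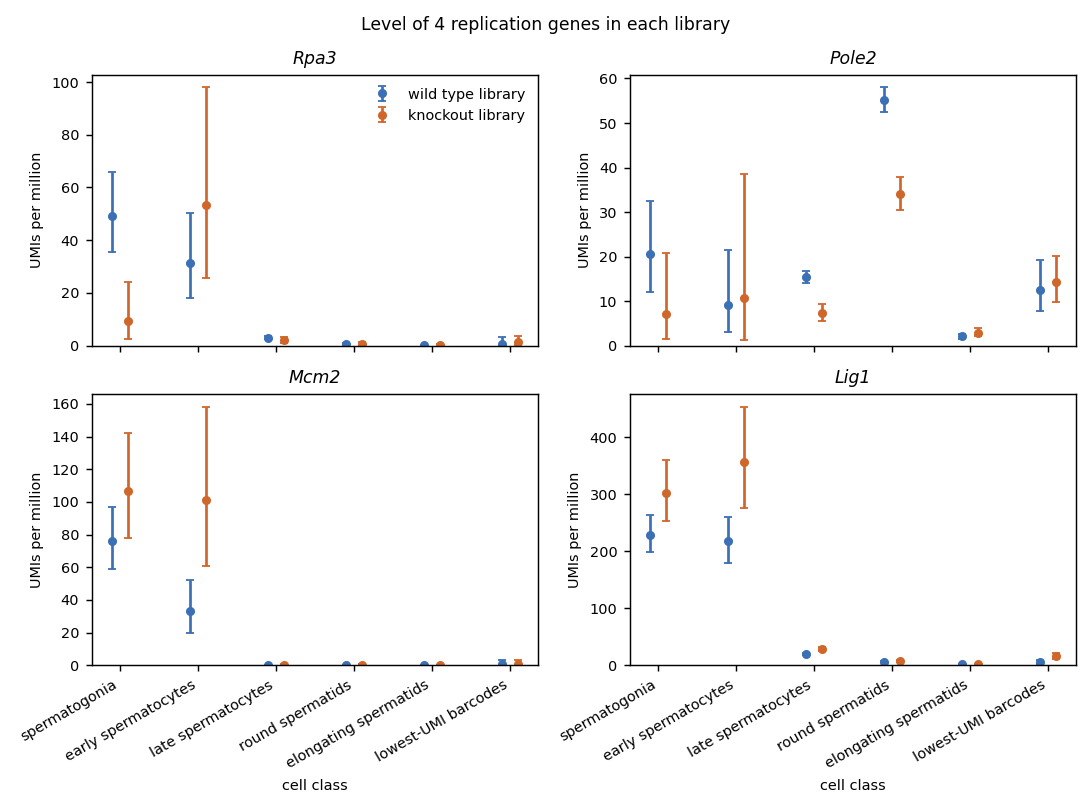
Level in CPM (vertical axis) of Rpa3, Pole2, Mcm2 and Lig1 by germ cell class and in the barcodes with fewest UMIs, in the wild type and knockout library; bars are exact Poisson 95% intervals. Rpa3 stands at 49.0 and 9.46 in spermatogonia and Pole2 at 55.2 and 34.0 in round spermatids.

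The other genes past the limit stood between 0.308 and 11.6 CPM in either library. In late spermatocytes Mcm6 (4.89 and 7.39 CPM) and Mcm10, a helicase activator (1.67 and 3.50), were higher in the knockout library, and under both other scalings Mcm6 was not, so that 1 higher and 1 lower gene were left. In round spermatids Orc3, Mcm5, Mcm6 and Rpa2 were higher, at 7.94, 3.76, 2.75 and 2.34 in the knockout library against 5.06, 2.26, 1.63 and 0.919. Free RNA of the knockout library held these 4 at 13.9, 2.17, 2.17 and 8.24, and all genes were called higher more often than lower in this class (9.09% and 1.21%). With cells thinned to 2000 UMIs the ratio of Mcm6 turned to -0.11, and with median-of-ratios scaling 2 of these 4 were left beside Pole2. In elongating spermatids Cdc45 (0.308 and 0.997) and Tipin (4.98 and 7.97) were higher, and Pcna (11.6 and 7.36) and Prim1, the primase subunit (1.54 and 0.767), lower. Under both other scalings Tipin was not past the limit, which left 1 higher and 2 lower genes. With mixed clusters counted in the class the ratios of Cdc45 and Tipin turned to -0.27 and -0.10. Free RNA held Pcna at 64.8 and 46.4.

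Markers of some other cell types differed between the libraries in the same barcodes. In the premeiotic cluster the sum of the 8 Leydig cell markers was 34.4 CPM in the wild type and 316 in the knockout library, with 7 and 8 detected. The 9 macrophage markers gave 4.87 and 60.7, with 6 and 9 detected, and the 9 B lymphocyte markers 6.36 and 71.0, with 3 and 8 detected. In free RNA these 3 lists stood at 118 and 715, 18.0 and 106, and 9.0 and 93.6. Endothelial markers were at 22.5 and 25.2 in the cluster, and neutrophil markers at 1.12 and 0. Elongating spermatid markers were at 28949.5 and 28572. The part of these markers in the ratios of the replication genes was not tested. In Leydig cells themselves the 45 genes summed to 496 and 569, below the sums of the premeiotic cluster.

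The 5 further lists of replication-linked genes, written by role, gave few genes past the limit in spermatogonia: Mcm8, a helicase paralog used in recombination, and Atad5, which unloads the clamp, of 26 accessory factors measured, both lower (2.97% of all genes were lower). Mcm8 stood at 38.8 and 16.6 CPM and Atad5 at 87.8 and 49.7. None of 11 nucleotide supply genes, 9 genes of replication-coupled chromatin, 15 S phase regulators or 3 meiotic partners of RPA and MCM was past it there. In early spermatocytes, where 4.92% of all genes were higher and 5.58% lower, Ticrr, which helps to fire origins, was higher (40.5 and 95.9; 1 of 20 accessory factors), as were Dctpp1 (144 and 245) of 5 nucleotide supply genes and Tfdp2, an E2F partner (73.7 and 197), of 10 S phase regulators. Lower there were Dut, which removes dUTP (162 and 85.2), the histone chaperone subunits Ssrp1 (73.7 and 21.3) and Supt16 (322 and 208) of 9 chromatin genes, and Meiob, a meiotic relative of Rpa1 (88.4 and 21.3), of 4 meiotic partners. Meiob is a leading gene of the smaller sub-cluster, which held 31 of 87 wild type and 6 of 38 knockout cells of the class. In the whole premeiotic cluster 8 genes of these lists were higher and 1 lower, of 69 measured, beside 4.00% and 4.99% of all genes. The counts of the lists were not tested.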

How the data were processed

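Single-cell RNA-seq counts came from 1 wild type and 1 Igf2bp1 knockout testis library. The deposited matrices hold whole UMI counts per gene and barcode, made by the authors with Cell Ranger, per the submitters' processing notes (version 2.2.0, with STAR, on mm10), whereas the matrix headers name 3.1.0. No source used here gives the strand setting.

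Barcodes with at least 500 UMIs, 250 genes and at most 20% mitochondrial UMIs were kept (17002 and 17703). Cells were clustered with scanpy 1.11.5 (2000 variable genes, 30 components, 15 neighbours, Leiden resolution 1) without the 45 genes and other replication genes among the variable genes. Clusters were named from marker lists, with naming limits set after seeing the data. The deposited counts were summed per class and scaled to CPM. The lowest 10% of barcodes by UMIs stood for free RNA. Scrublet in scanpy marked 5774 of 17362 wild type barcodes (33.3%) and 2 of 17968 knockout barcodes (0.0111%). It thus did not work on the knockout library. In the wild type library 4491 of the marked barcodes held little more than free RNA, so its calls there are doubtful too. No barcode was removed for it, and 26 of the 282 wild type cells of the premeiotic cluster were marked. Gene positions are from GENCODE M21 (GRCm38). No p-value was computed with 1 library per genotype.

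The 45 genes and the lists were chosen with earlier results of these data known. All 45 may be named with values. Of the other lists, those past the limit in spermatogonia or early spermatocytes are named. Alternatives covered class naming, barcode and gene filters, scaling (TMM in edgeR 4.0.16, median of ratios), free RNA, cluster weights, thinning to 2000 UMIs, cells with most UMIs and the fold limit. Those for the premeiotic cluster, for leaving out a sub-cluster or cluster, and for the larger early spermatocyte sub-cluster were added after seeing the data.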

Additional observations from a re-analysis of the deposited data

Results flagged for a closer look

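A signal lay outside the comparisons, in B-lymphocyte-like cells, of which the wild type library held 0 and the knockout library 354. In the 157 of them with a UMI of a B cell precursor marker, the helicase subunits Mcm2 to Mcm6 summed to 167 CPM, and 22.3% of cells had a UMI of these genes. In the 197 without one the sum was 56.8 and the share 8.12%. Free RNA of that library held 7.80 CPM, and 1.01% of its barcodes with fewest UMIs had a UMI of these genes. The median barcode held 2573 UMIs with a precursor UMI, 2295 without one and 1301 in free RNA.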

How the results depend on the processing

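No paired analysis was possible because each genotype has 1 library. No value has a replicate check, and the classes of 38 to 102 cells limit what can be told for single genes. The causes of the shifts below were not tested. The summed log2 ratio of the 45 genes became -0.12 in the premeiotic cluster, -0.25 in spermatogonia, -0.042 in early and -0.078 in late spermatocytes when the markers of each single cell set its class. With mixed clusters counted with their best class it was 0.14 in spermatogonia and -0.20 in elongating spermatids. TMM scaling gave -0.0796, -0.071 and -0.019 in late spermatocytes, round and elongating spermatids, and median-of-ratios scaling -0.085, -0.085 and -0.026. With free RNA subtracted it was 0.33 in the premeiotic cluster and -0.030 in elongating spermatids. Equal cluster weights gave 0.074, 0.12, -0.055 and 0.030 in the premeiotic cluster, spermatogonia, early spermatocytes and elongating spermatids. Late spermatocytes are 1 cluster and have no such value. Thinned cells gave 0.15 in the premeiotic cluster, -0.12 in spermatogonia and 0.22 in elongating spermatids. It was 0.14 in the premeiotic cluster without the protamine sub-clusters and -0.066 in early spermatocytes from the larger sub-cluster alone.

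The number of genes past the limit was 5 in the premeiotic cluster, 1 in spermatogonia, 3 in early and 3 in late spermatocytes and 5 in round spermatids. In the premeiotic cluster it became 8 with free RNA subtracted, 3 with equal weights and 1 at a 2-fold limit. In spermatogonia it became 2 with replication genes among the variable genes, 9 with naming cell by cell, 5 with mixed clusters counted, 3 with equal weights, 2 without the cell with most UMIs and 0 at 50 UMIs per gene. In early spermatocytes it became 5 with naming cell by cell, 6 with mixed clusters counted, 5 with free RNA subtracted, 5 with equal weights, 0 with thinned cells and 1 at 50 UMIs per gene. It became 6 with thinned cells in late spermatocytes. In round spermatids it became 3 with median-of-ratios scaling, 0 with equal weights, 1 with thinned cells and 1 at a 2-fold limit. The log2 ratio changed sign for Mcm6 in round spermatids with thinned cells (-0.11) and, with mixed clusters counted, for Cdc45 (-0.27) and Tipin (-0.10) in elongating spermatids.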
